A study of Mus musculus with 2 samples.

Results

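Complement components and regulators were followed in 8 genes, of 32285 counted in each library. The genes were taken by their symbols: C2, C3, C4b and Cfb (factor B) code for components of the cascade, Serping1 (C1 inhibitor), Cd55 (decay-accelerating factor) and Cd59a code for inhibitors, and C5ar2 codes for a receptor of C5a. Each of the 8 symbols matched 1 gene. They were described in liver sinusoidal endothelial cells (LSECs), in macrophage-like and stellate-like cells, and in the smaller classes of cells captured beside them. The comparison asked how these genes differed between control mice and mice whose LSECs lack the transcription factor c-Maf.

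The Maf LSEC-KO mice carried the Clec4g-iCre transgene and 2 floxed Maf alleles. Clec4g drives the Cre mainly in LSECs, from before birth. Control animals were littermates without Cre that had 1 or 2 floxed Maf alleles, and the sample labels call them WT. The transgene was on C57BL/6N and the floxed allele on B6.129P2. No treatment is named, and the paper states that experiments after its diet model used only chow-fed mice. Mice of the study were female and male and aged 3 months or more. Which age and sex the sequenced animals had is not given in the sources used here. Livers were digested with collagenase and cells were selected by CD146, an endothelial surface protein, so the other cell types are those still present after it. Each condition was 1 library of 3′ single-cell RNA-seq made from a pool of 3 mice. With 1 library a group there was no test between conditions and no p-value was computed, and all intervals below are exact 95% intervals that cover counting error only.

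Complement is a chain of plasma proteases and opsonins. C4b and C2 belong to the classical and lectin pathways, factor B belongs to the alternative pathway, and all routes meet at C3. Hepatocytes supply most of the circulating proteins and Kupffer cells, the resident macrophages of the liver, add to them. C1 inhibitor blocks the first proteases, CD55 speeds the decay of the C3 convertases on the cell that carries it, and CD59 blocks insertion of the membrane attack complex. C5aR2 binds C5a without coupling to G proteins. C2 and Cfb are known interferon-responsive genes.

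In the GRCm38 assembly (GENCODE M21), 4 of the 8 genes lie on chromosome 17. C4b spans 34728380 to 34743882, Cfb 34856374 to 34862518 and C2 34862604 to 34898265, all on the minus strand in the complement cluster of the major histocompatibility region, and C3 lies apart at 57203970 to 57228136. C2 and Cfb are separated by 85 bases, and the annotated gene Gm20547, which was not counted, spans parts of both, so reads between them are uncertain. Serping1 (2, 84765387 to 84775444) and Cd59a (2, 104095801 to 104115354) share chromosome 2, Cd55 lies on chromosome 1 (130439027 to 130462744), and C5ar2 on chromosome 7 (16234585 to 16244154). C4a, Cd59b and Cd55b are near copies of C4b, Cd59a and Cd55, and reads shared between copies may be missing or misplaced. In LSECs the copies held between 5 UMIs (C4a in control) and 68 UMIs (Cd55b in control).

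RefSeq windows of 250 bases before the transcript start (GRCm38.p6) were at hand for 4 of the 8 genes: C3, Cd55, Cd59a and C5ar2 with 2 starts. The windows of Cd55 and C5ar2 are shown because these genes differed most between control and Maf LSEC-KO LSECs among those with a window. Both are read 5′ to 3′ along the gene, on the minus strand, and capitals mark TGCTGAC, the half-site of the Maf recognition element, searched on both strands.
Cd55, chr1:130462745-130462994: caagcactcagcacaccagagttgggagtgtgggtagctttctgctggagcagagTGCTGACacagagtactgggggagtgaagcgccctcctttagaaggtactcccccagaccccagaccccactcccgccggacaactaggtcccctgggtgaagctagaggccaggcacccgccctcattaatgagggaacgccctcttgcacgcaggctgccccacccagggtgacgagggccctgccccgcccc
C5ar2, chr7:16244155-16244404: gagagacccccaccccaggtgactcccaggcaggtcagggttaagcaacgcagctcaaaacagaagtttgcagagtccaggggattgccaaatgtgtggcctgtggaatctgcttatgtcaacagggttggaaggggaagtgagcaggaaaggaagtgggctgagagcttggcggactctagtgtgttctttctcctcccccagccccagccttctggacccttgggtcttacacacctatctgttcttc
The Cd55 window held 1 match, which begins 195 bases before the start. The other windows held 0 matches. Of 32851 windows of this length, 3.81% held the half-site. A match of letters is a description and not a binding site, and windows without it say nothing about more distant elements.

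The control library held 5664 barcodes and the Maf LSEC-KO library 7091, and 3536 control and 3163 Maf LSEC-KO cells were counted as LSECs, with doublets and cells holding Vwf left out. The LSECs held a median of 9288 and 14015 UMIs, and 10 barcodes were shared by the libraries. Levels are given in CPM, that is UMIs per 1000000 UMIs outside mitochondrial and ribosomal protein genes, summed over the cells of a class. Maf itself was at 3511 CPM among control LSECs and at 121 CPM among Maf LSEC-KO LSECs. In macrophage-like cells Maf was at 1505 and 1523 CPM. The pan-endothelial marker Pecam1 was at 720 and 780 CPM, whereas the LSEC markers Stab2 (1666 and 179 CPM) and Clec4g (3013 and 1522 CPM) were lower in Maf LSEC-KO LSECs, so the label LSEC stands there for endothelial cells without Vwf rather than for a full LSEC marker set.

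Among the genes counted well enough to compare in LSECs, the 2 libraries differed most for the receptor C5ar2, the inhibitors Cd55 and Serping1, and the component C2. C5ar2, Cd55 and C2 were lower in Maf LSEC-KO LSECs and Serping1 was higher. Of the 8 genes, 6 reached 10 CPM in either library with at least 20 UMIs in all. Among these 6, 3 were at least 2-fold lower, against 4.85% of the 9305 genes that met the same minima, and 1 was at least 2-fold higher, against 10.4%. Their median log2 ratio was −0.83, and that of all genes that met the minima was 0.13. C3 and C4b did not meet the minima.

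**Figure D1:**
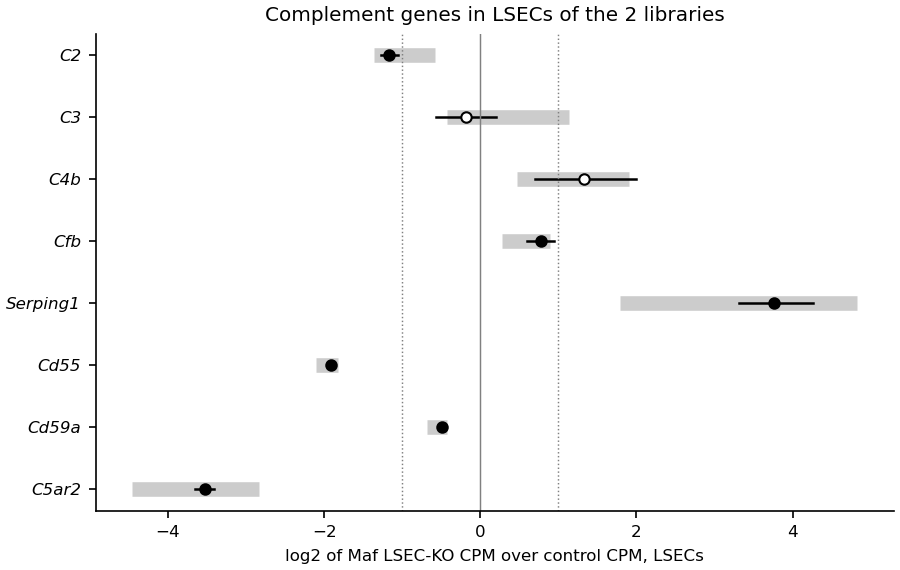
Log2 of the Maf LSEC-KO level over the control level for each gene in LSECs, with 0 drawn as a solid line and 2-fold as dotted lines. Circles are the values (open for the 2 genes below the minima), black lines the counting intervals and grey bars the range over 15 other ways of processing. C5ar2 and Cd55 lie left of the 2-fold line in all of them, and Serping1 lies right of it, from 1.79 to 4.83.

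Cd55, whose product protects a cell from convertases on its surface, was found in nearly every control LSEC. Control LSECs had 1369 CPM (interval 1356 to 1382) of Cd55. Maf LSEC-KO LSECs had 365 CPM (359 to 371), which is 3.75-fold lower (log2 ratio −1.91, interval −1.94 to −1.88). A Cd55 UMI was found in 97.0% of LSECs in the control library and 82.5% in the other. At a fixed depth of 3600 UMIs per cell, which 3190 and 2869 LSECs reached, the shares were 95.2% and 55.9%. The median LSEC held 10 Cd55 UMIs in control and 3 in Maf LSEC-KO.

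Cd59a, the inhibitor of the terminal step, differed far less. Control LSECs had 619 CPM (610 to 628) and those of the Maf LSEC-KO library 440 CPM (434 to 447), with a log2 ratio of −0.49 (−0.52 to −0.46). The shares of LSECs with a UMI were 90.7% and 87.1%, or 82.5% and 64.4% at fixed depth. The range of the Cd59a log2 ratio over the other ways of processing was −0.69 to −0.42, so it stayed within 2-fold.

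C5ar2, the receptor, was counted in few Maf LSEC-KO LSECs. The control level was 174 CPM (169 to 179). The Maf LSEC-KO level was 15.1 CPM (13.9 to 16.3), which is 11.5-fold lower (log2 ratio −3.53, interval −3.65 to −3.41). A C5ar2 UMI was seen in 64.3% and 11.3% of LSECs, and in 38.6% and 4.53% at fixed depth. The remaining UMIs were uneven: the 40 LSECs with the most C5ar2 UMIs held 31.5% of all 593 UMIs among Maf LSEC-KO cells, compared with 6.51% of 5419 among control cells.

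Of the components, C2, the protease subunit of the classical C3 convertase, had 66.5 CPM (63.7 to 69.5) in control LSECs. In the Maf LSEC-KO library it had 29.7 CPM (28.0 to 31.5), with a log2 ratio of −1.16 (−1.27 to −1.06). Its neighbour Cfb had the opposite sign. Cfb was at 12.6 CPM (11.4 to 13.9) and 21.5 CPM (20.1 to 23.0), a log2 ratio of 0.77 (0.60 to 0.95), within 2-fold. Both were sparse, with C2 in 25.5% and 21.3% of LSECs and Cfb in 9.05% and 15.7%. Fixed depth gave 14.1% and 7.11% for C2, and 4.36% and 5.02% for Cfb.

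Serping1 was near the detection limit in control LSECs, with 41 UMIs in 34 of 3536 cells, or 1.32 CPM (0.945 to 1.79). Among Maf LSEC-KO LSECs it reached 705 UMIs in 389 of 3163 cells, or 17.9 CPM (16.6 to 19.3). The log2 ratio was 3.77 (3.31 to 4.26). The 10 cells with the most Serping1 held 20.6% of these UMIs, and the highest cell held 36. Stellate and mesothelial cells carry much Serping1, as described below, so the ratio was taken again without LSECs that held UMIs of at least 2 stellate or 2 macrophage genes. In the 2027 control and 1944 Maf LSEC-KO LSECs left, it was 4.83, a value that rests on at most 41 control UMIs. This step leaves out cells with genes of other cell types and does not remove free RNA. Serping1 was also counted in barcodes dropped for too few UMIs or genes. It was at 2.31 CPM (1 UMI) in 703 such control barcodes and 25.65 CPM (25 UMIs) in 1668 of Maf LSEC-KO. The share of free RNA in the Serping1 UMIs of LSECs was not tested.

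C4b and C3 were scarcely counted in LSECs. C4b had 28 UMIs among control LSECs and 89 among Maf LSEC-KO LSECs (0.899 and 2.26 CPM), and C3 had 109 and 121 UMIs (3.50 and 3.07 CPM). No LSEC held more than 6 UMIs of C4b or 4 UMIs of C3. For C3 the interval of the log2 ratio, −0.57 to 0.20, included 0. Whether these C3 and C4b UMIs came from LSECs or from free RNA was not tested.

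Some LSECs of the Maf LSEC-KO library still held Maf mRNA, and in those with the most Maf UMIs, Cd55 and C5ar2 lay nearest to the control levels. Maf UMIs were absent from 2503 Maf LSEC-KO LSECs, 336 held 1, 166 held 2 to 9 and 158 held 10 or more. Cd55 was at 330 CPM (324 to 337) with 0 Maf UMIs, 334 CPM with 1, 381 CPM with 2 to 9, and 1037 CPM (989 to 1086) with 10 or more. C5ar2 was at 7.72 CPM (6.76 to 8.78), 8.94 CPM, 20.8 CPM and 154 CPM (136 to 174) in the same order. Control LSECs with at least 2 Maf UMIs had 1374 CPM of Cd55 and 174 CPM of C5ar2. The counting intervals of the groups with 0 and 1 Maf UMI overlapped for both genes, and the group with 10 or more was nearest to control for both.

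**Figure D2:**
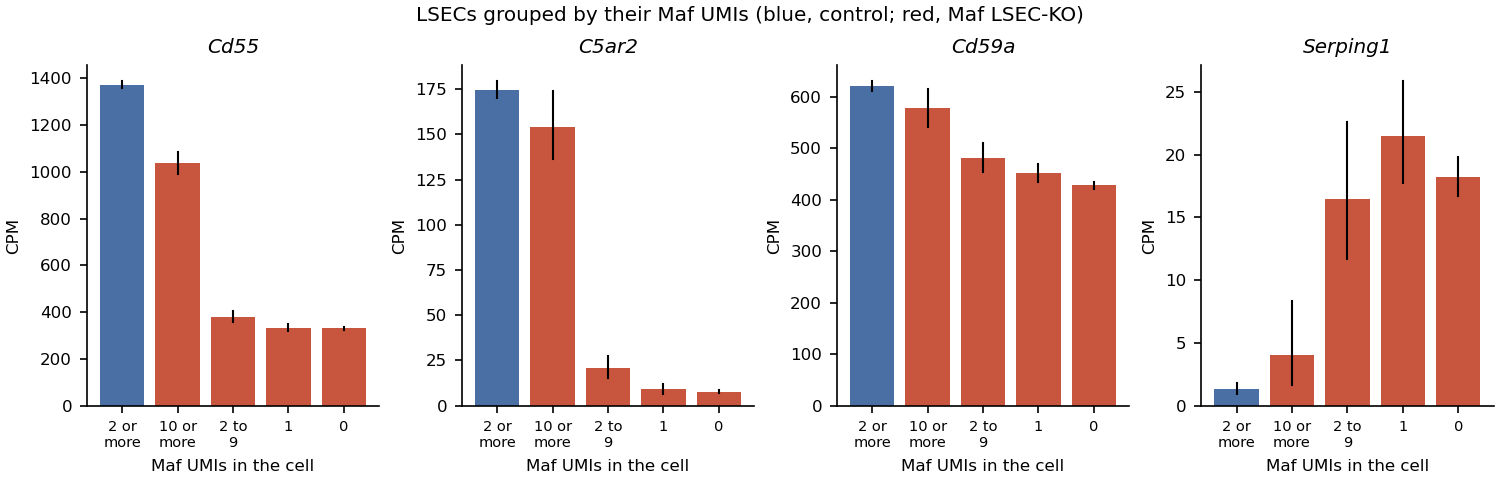
Levels in CPM of 4 complement genes in LSECs grouped by the number of Maf UMIs in the cell, with exact 95% counting intervals as black lines. The blue bar is the control library (cells with 2 or more Maf UMIs) and the red bars are Maf LSEC-KO LSECs with 10 or more, 2 to 9, 1 and 0 Maf UMIs. Cd55 and C5ar2 are high in the 158 cells with 10 or more and Serping1 is low there.

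Cd59a followed the same order with small steps, from 428 CPM with 0 Maf UMIs to 577 CPM with 10 or more. Serping1 had the opposite order at the ends, with 18.2 CPM (16.7 to 19.8) at 0 Maf UMIs and 4.06 CPM (1.63 to 8.36) at 10 or more. Cells with 0 Maf UMIs were compared with cells with 2 or more over all genes. Of the 8 complement genes, 6 met the minima in this comparison. Cd55 (330 and 661 CPM) and C5ar2 (7.72 and 77.9 CPM) were at least 2-fold lower in cells with 0, against 1.83% of 9204 genes, and 0 of the 6 were at least 2-fold higher, against 0.858%. C2 was level, at 29.7 and 28.0 CPM. These groups of cells come from 1 library and are not replicates, and their median depths differed, with 13883 UMIs at 0 Maf UMIs, 18140 at 1, 14604 at 2 to 9 and 10562 at 10 or more.

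The LSECs of both libraries were also clustered together with the complement genes left out of the clustering. Of 8 clusters, clusters 1 (1634 control and 65 Maf LSEC-KO cells), 3 (1004 and 91) and 5 (792 and 34) were mostly control. Clusters 2 (12 and 1308), 4 (2 and 1065), 6 (61 and 537) and 7 (2 and 62) were mostly Maf LSEC-KO. Cluster 8 (29 and 1) was led by the lymphocyte genes Gzma and Nkg7. In cluster 1, Cd55 was at 1510 CPM in control and 1320 CPM in Maf LSEC-KO cells, and C5ar2 was at 179 and 203 CPM. In cluster 3, Cd55 was at 1228 and 1002 CPM and C5ar2 at 186 and 173 CPM. The few Maf LSEC-KO cells of these clusters thus had C5ar2 levels close to those of control cells, while their Cd55 levels were lower with intervals that did not overlap. C2 differed in both clusters and in opposite directions, at 104 CPM in control and 29.9 CPM in Maf LSEC-KO cells of cluster 1, and at 14.3 and 39.5 CPM in cluster 3. Maf was at 2690 CPM in those 65 cells and 2306 CPM in those 91 cells.

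Across the Maf LSEC-KO clusters Cd55 was low throughout, and lowest in cluster 7. It was at 334 CPM in cluster 2, 372 CPM in cluster 4, 298 CPM in the dividing cells of cluster 6, which were led by histone genes and Mki67, and 68.5 CPM (46.8 to 96.7) in the 62 cells of cluster 7, led by Sparcl1, Igfbp3 and Cxcl12. C5ar2 was at 8.99, 10.4 and 6.18 CPM in clusters 2, 4 and 6. In cluster 7 it had 0 UMIs, where a count of 0 allows up to 7.89 CPM by the exact interval. Dividing control cells (61 in cluster 6) had 1081 CPM of Cd55 and 74.4 CPM of C5ar2, so C5ar2 was lower in them than in the other control clusters of at least 50 cells, where it ranged from 150 to 186 CPM.

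C2, Cfb and Serping1 varied between clusters in another way. Within the Maf LSEC-KO library, cluster 2, which was led by Ly6c1 and interferon-induced genes such as Ifi27l2a, Oas3 and Irf7, had 49.4 CPM of C2, 36.0 CPM of Cfb and 33.0 CPM of Serping1. Cluster 4, led by Astn1, Kcne3 and Gpm6a, had 7.65, 5.91 and 4.69 CPM. In the control library C2 was at 104 CPM in cluster 1 and 14.3 CPM in cluster 3. The C2 levels of these clusters lay further apart within each library than the summed LSEC levels of the libraries did.

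Interferon-induced chemokines were used to group LSECs within each library, because C2 and Cfb are interferon-responsive. Control LSECs with at least 2 UMIs of Cxcl9 and Cxcl10 together (1743 cells) had 97.7 CPM of C2, and those with 0 (1306 cells) had 17.4 CPM, a log2 ratio of 2.49 (2.25 to 2.74). In the Maf LSEC-KO library, C2 was at 32.7 CPM in 2212 cells with at least 2 and at 11.6 CPM in 582 cells with 0, a log2 ratio of 1.49 (1.04 to 1.98). Of 9 interferon genes set beside it, Irf7 had the largest log2 ratios between these groups, 2.08 in control and 1.03 in Maf LSEC-KO, and Gbp4 the smallest, 0.08 and 0.06. Irf1 (0.18 and 0.18) and Gbp2 (0.50 and 0.46) also differed little. The cells with 0 were shallower, with a median of 7146 UMIs against 11300 UMIs in control and 5992 UMIs against 16833 UMIs in Maf LSEC-KO.

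**Figure D3:**
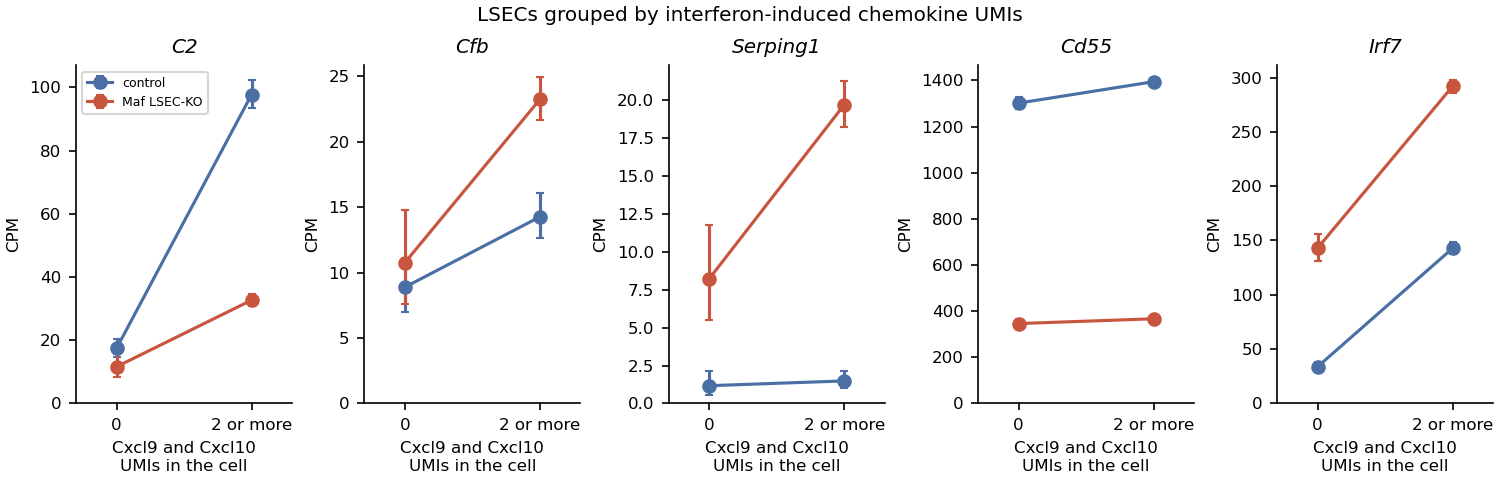
Levels in CPM of C2, Cfb, Serping1, Cd55 and the interferon-induced Irf7 in LSECs with 0 and with 2 or more Cxcl9 and Cxcl10 UMIs, in control (blue) and Maf LSEC-KO (red) cells, with exact 95% counting intervals. In control, C2 is at 17.4 and 97.7 CPM in the groups and Cd55 at 1302 and 1395 CPM.

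Cfb was also higher in chemokine-positive LSECs, at 14.3 against 8.89 CPM in control and 23.3 against 10.8 CPM in Maf LSEC-KO. Serping1 was at 19.7 against 8.22 CPM in the Maf LSEC-KO library, while the control values of 1.48 and 1.17 CPM had intervals that overlapped. This difference between libraries was not tested. Cd55 (1395 and 1302 CPM) and Cd59a (619 and 634 CPM) hardly differed between the groups of control cells. Between the libraries, interferon-induced genes of chemokine-positive cells differed unevenly. Irf7 was at 292 CPM in Maf LSEC-KO and 143 CPM in control, whereas Gbp2 (65.6 and 69.5 CPM), Gbp4 (153 and 168 CPM) and Iigp1 (467 and 516 CPM) were slightly lower in Maf LSEC-KO. C2 in the same cells was at 32.7 CPM in Maf LSEC-KO and 97.7 CPM in control. In cells with 0 chemokine UMIs the C2 log2 ratio between the libraries was −0.59 (−1.12 to −0.08), so the C2 difference no longer reached 2-fold there.

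Position along the sinusoid was estimated from landmark genes, with complement genes left out, and LSECs of each library were cut into 4 equal zones from central (1) to portal (4). In control LSECs most of the 8 genes had shallow gradients. Cd55 was at 1441, 1427, 1377 and 1186 CPM from zone 1 to zone 4, and C5ar2 at 154, 172, 188 and 183 CPM. Cfb went from 16.8 to 10.0 CPM and C2 from 67.3 to 60.8 CPM. The portal zone of control cells was the shallowest, with a median of 6934 UMIs against 9748 UMIs in zone 1, and hepatocyte genes were at 314 against 100.5 CPM. C3 moved with the hepatocyte genes, from 1.53 CPM in zone 1 to 6.36 CPM in zone 4, and their part in it was not tested.

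In Maf LSEC-KO LSECs, C2 had the steepest gradient of the 8 genes, with 44.7, 29.6, 25.8 and 12.9 CPM from zone 1 to zone 4. Its values in zones 1 and 4 were 44.8 and 13.1 CPM when cells with at least 2 Maf UMIs were left out, a step added after seeing the data. C5ar2 was at 24.2 CPM in zone 1 and between 11.2 and 12.1 CPM in the others, but Maf was also higher in zone 1, at 282 CPM against 46.1 CPM in zone 4. Without those cells C5ar2 was at 6.31 CPM in zone 1 and 9.53 CPM in zone 4, so the direction turned. Only 7 central landmarks were found in Maf LSEC-KO LSECs, against 41 in control, so zones of the 2 libraries are not matched positions.

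Macrophage-like cells, named from Kupffer cell genes, held most of the C4b UMIs and also carried C2, Cfb and C3. There were 219 in control and 387 in Maf LSEC-KO. C4b was at 210 CPM (187 to 234) and 310 CPM (288 to 334), and these cells held 76.2% and 53.1% of all C4b UMIs while making up 4.62% and 7.57% of cells. C2 was at 122 and 118 CPM, a log2 ratio of −0.05 (−0.33 to 0.23). Cfb was at 158 and 113 CPM, and C3 at 121 and 57.7 CPM. Serping1 had 1 and 13 UMIs. Hepatocyte genes were at 2505 and 3531 CPM in macrophage-like cells, against 187 and 97.4 CPM in LSECs. The part of hepatocyte RNA in the component counts was not tested.

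Of 7 genes that met the minima in macrophage-like cells, C3, Cd55 and Cd59a were at least 2-fold lower in the Maf LSEC-KO library, against 7.67% of 9317 genes, and 0 were at least 2-fold higher, against 3.96%. The Cd59a value was under 2-fold in some settings, with a log2 ratio of −1.40 here, −0.50 with doublets kept and −0.97 in cells with a Clec4f UMI. The C3 value depended on which cells were counted. At a finer clustering, chosen after seeing the data, 68 of the 219 control cells separated under the name monocyte-like. They had 267 CPM of C3 and 271 CPM of Cfb, and 1.86 CPM of C4b. Their leading genes included S100a4, Ly6c2 and Ccr2, but also the dendritic cell marker Siglech, Ccl22 and Ccr7, so the name may cover a mixture. In the 153 control cells that were macrophage-like at this setting, C3 was at 38.0 CPM, against 57.7 CPM in Maf LSEC-KO, a log2 ratio of 0.60 (0.07 to 1.17) in place of −1.07. Over the same cells C4b was at 321 and 310 CPM, C2 at 169 and 118 CPM, and Cfb at 92.4 and 113 CPM. With only cells that held a UMI of the Kupffer cell gene Clec4f (151 and 369 cells), C4b was at 306 and 310 CPM and C3 at 92.9 and 56.7 CPM. C4b thus lay at nearly the same level in the libraries once cells were chosen by Kupffer cell genes, and C3 did not keep 1 direction.

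Endothelial genes were also counted in macrophage-like cells, and less so in the Maf LSEC-KO library. Cd55 was at 397 and 104 CPM there, which is 29.0% and 28.4% of the LSEC level in the same library. The 14 endothelial genes stood at a median of 27.4% and 12.8% of their LSEC level in the same cells. Cd59a was at 27.5% and 14.7%, so in these classes its share moved with that of the endothelial genes and the share of Cd55 did not. The control class includes the 68 monocyte-like cells, which had 588 CPM of Cd55 and 265 CPM of Cd59a. In the 153 control cells that were macrophage-like at the finer clustering, Cd55 was at 295 CPM and Cd59a at 130 CPM. The control shares thus depend on which cells were counted. For C5ar2, control macrophage-like cells had 58.8 CPM (47.1 to 72.4) and those of the Maf LSEC-KO library 56.4 CPM (47.1 to 67.0), which is 33.8% and 374% of the LSEC level. The log2 ratio of C5ar2 in macrophage-like cells was −0.06 (−0.46 to 0.35), against −3.53 in LSECs. With doublets kept it was −0.74, from 74.0 and 44.4 CPM in 262 and 460 cells. The share of these counts that came from free endothelial RNA was not tested.

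Stellate-like cells, which store vitamin A and were required to hold Lrat and Reln, were few, with 9 in each library. Serping1 was found in 9 of 9 control cells, with 3 to 17 UMIs and a median of 8, and in 9 of 9 Maf LSEC-KO cells, with 1 to 23 UMIs and a median of 8. The summed levels were 548 CPM (430 to 689) and 445 CPM (358 to 548), with a log2 ratio of −0.30 (−0.76 to 0.17). C4b had 13 and 26 UMIs, Cfb 16 and 16, C2 6 and 23, and C3 2 and 5. Genes high in macrophage-like cells were counted almost only in the Maf LSEC-KO stellate-like cells. C1qa had 0 UMIs in control and 72 in Maf LSEC-KO, and C1qb had 1 and 74. The part of macrophage RNA in the C4b and C2 counts was not tested. In each library 5 of the 9 cells held 11 or more of the 14 endothelial genes. With the other 4 cells of each library Serping1 was at 723 and 558 CPM, and Cd55 was at 103 and 46.5 CPM against 601 and 225 CPM over all 9. Cells of 1 library are not replicates, and differences of the other genes rest on few UMIs.

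C3 reached its highest levels in other mesenchymal cells. Cells with at least 3 of 4 mesothelial genes, the cells of the liver capsule, carried much C3, with 276 UMIs in the 1 control cell and between 38 and 844 UMIs with a median of 261 in the 10 Maf LSEC-KO cells. These 10 cells were 0.196% of the cells and held 70.9% of all C3 UMIs of the Maf LSEC-KO library. In control the C3 UMIs were more spread. The 1 mesothelial-like cell held 29.4%, macrophage-like cells 19.3%, unnamed cells with hepatocyte genes 18.5%, other mesenchymal cells 16.1% and LSECs 11.6%. The 10 Maf LSEC-KO cells also had between 3 and 117 Serping1 UMIs, between 0 and 114 C4b UMIs, between 1 and 52 Cfb UMIs and between 1 and 31 C2 UMIs. C5ar2 had 0 UMIs in all 11 mesothelial-like cells. Mesenchymal cells without these features (2 and 9 cells) were mixed, with 0 to 151 C3 UMIs and 0 to 64 Serping1 UMIs.

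**Figure D4:**
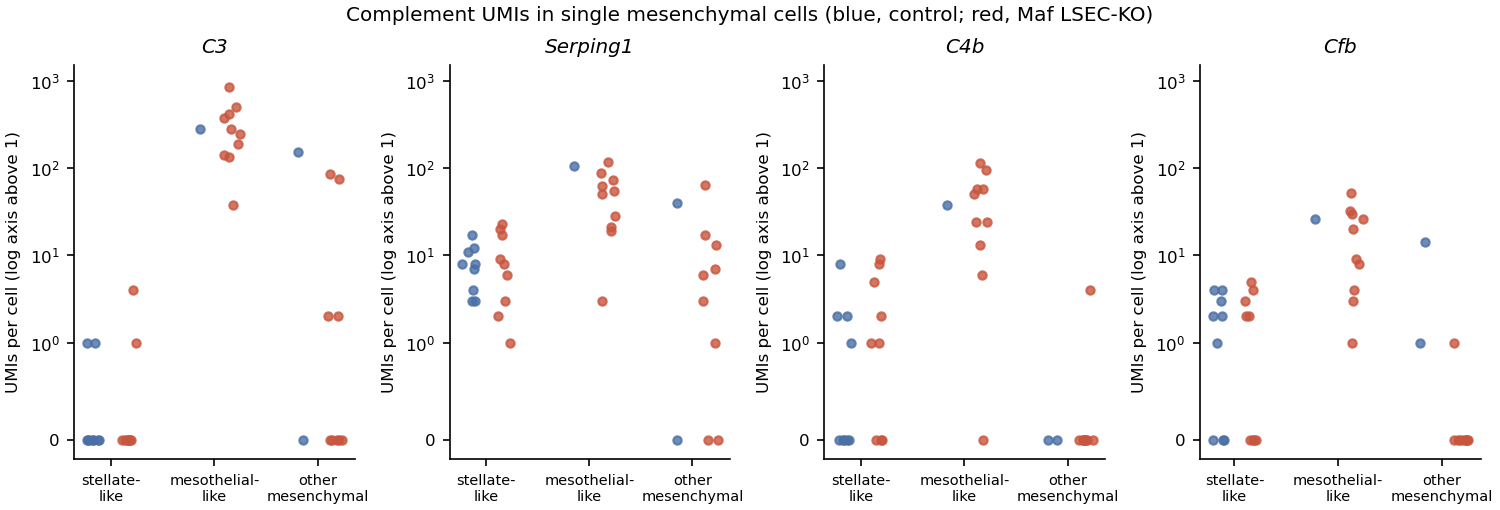
UMIs per cell of C3, Serping1, C4b and Cfb in stellate-like cells (9 and 9), mesothelial-like cells (1 and 10) and other mesenchymal cells (2 and 9) of the control (blue) and Maf LSEC-KO (red) libraries, each point a cell, on an axis that is linear up to 1 and logarithmic above. C3 lies at 38 or more in all mesothelial-like cells and at 4 or less in all stellate-like cells.

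Among the remaining classes, C3 was at 1084 CPM in 37 cholangiocyte-like cells, 272 CPM in 70 monocyte-like cells, and 237 and 207 CPM in neutrophil-like cells of the control and Maf LSEC-KO libraries. Hepatocyte genes were at 8922 CPM in the cholangiocyte-like cells, and the part of hepatocyte RNA in their C3 level was not tested. Cfb was at 220 CPM in the monocyte-like cells. The leading genes of their cluster included the dendritic cell marker Cd209a beside S100a4, Ccr2 and Ly6c2. The 40 control neutrophil-like cells had 143 CPM (90.9 to 215) of C5ar2 and the 85 of the Maf LSEC-KO library 106 CPM (75.8 to 144), in cells where the endothelial genes stood at only 13.8% and 7.86% of the LSEC level. Neutrophil-like cells were thus the class with the highest C5ar2 level in the Maf LSEC-KO library. Cd55 was at 720 CPM (602 to 855) in 38 B cell-like cells of the Maf LSEC-KO library, in 92.1% of them, where endothelial genes stood at 12.4% of the LSEC level. The 47 control B cell-like cells had 1057 CPM, but with endothelial genes at 67.3%.

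**Figure D5:**
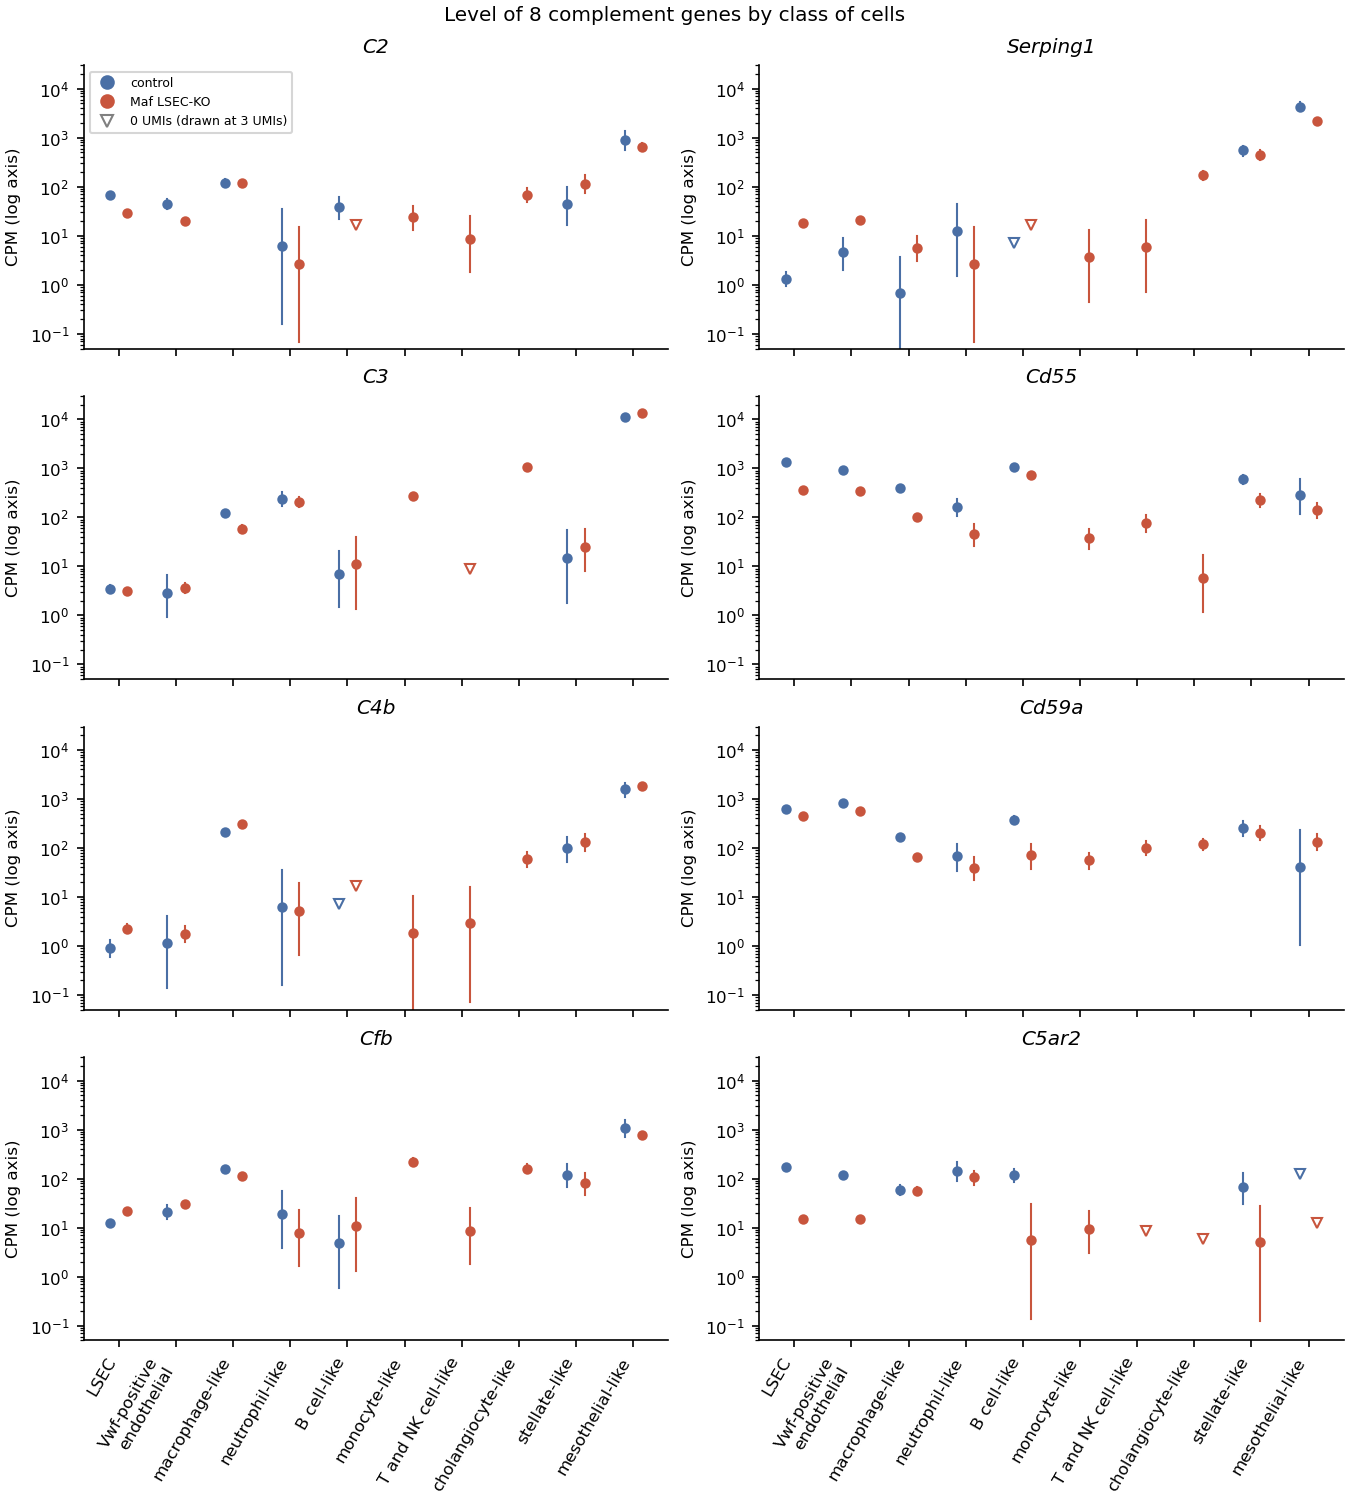
Level in CPM (log axis) of each of the 8 genes in 10 classes of cells, control in blue and Maf LSEC-KO in red, with exact 95% counting intervals as lines and open triangles at the level of 3 UMIs where none was counted. Classes without cells in a library have no point, and stellate-like and mesothelial-like points rest on 10 cells or fewer. C5ar2 lies apart between the libraries in endothelial cells and close together in macrophage-like and neutrophil-like cells, C4b is high in macrophage-like and mesothelial-like cells, and C3 is highest in mesothelial-like cells.

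Vwf-positive endothelial cells (162 in control and 1177 in Maf LSEC-KO), which were kept apart from LSECs, differed in the same directions. Cd55 was at 923 and 341 CPM and C5ar2 at 118 and 14.7 CPM. Cd59a was at 824 and 564 CPM, Serping1 at 4.59 and 20.5 CPM, Cfb at 21.2 and 30.6 CPM, and C2 at 44.2 and 19.9 CPM. These cells share the libraries with the LSECs and are no independent check.

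Of 47 other complement genes in the list, 31 reached 10 CPM in a class. In LSECs 10 met the minima, of which 6 were within 2-fold, with a median log2 ratio of 0.06 over the 10. Of the 10, 2 were at least 2-fold lower, against 4.85% of all 9305 genes, and 2 at least 2-fold higher, against 10.4%. Among the 2 lower genes, Hc, which codes for C5, was at 11.6 CPM in control and 3.89 CPM in Maf LSEC-KO. Clu, an inhibitor of the terminal complex, was at 21.2 and 209 CPM, and Susd4 at 3.15 and 17.4 CPM. Masp1, a protease of the lectin pathway, was at 344 and 279 CPM.

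In macrophage-like cells 19 of the 47 met the minima, with 15 within 2-fold. Of the 19, 1 was lower (Itgax), against 7.67% of 9317 genes, and 3 were higher (Hc, Clu and C5ar1), against 3.96%. The median log2 ratio of the 19 was 0.43, against 0.01 for all genes. The C1q genes, which code for the subunits that recognise antibody in the classical pathway, were within 2-fold: C1qa was at 3815 and 5890 CPM, C1qb at 2961 and 4313 CPM and C1qc at 2340 and 3670 CPM. These values come from clusters that held 68 monocyte-like cells in control, as for C3.

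The genes with the most similar pattern over 18 groups of at least 50 cells (LSEC clusters and other classes of both libraries) were found by Pearson's r of log2(CPM + 1) among 12079 genes. For C4b they were the Kupffer cell genes Cd5l (r = 0.98), Clec4f (0.98) and Vsig4 (0.98). For Cd55 they were Fam124a, Mid1 and Gpr182 (each 0.98), and for Cd59a Nr2f2, Bgn and Cemip2 (each 0.98). Similarity was lower for C5ar2 (6430548M08Rik, 0.93), Cfb (Tbc1d9, 0.91), C3 (Serp1, 0.93), C2 (Blvrb, 0.90) and Serping1 (Clu, 0.86). Stellate-like, mesothelial-like, other mesenchymal and cholangiocyte-like cells numbered fewer than 50 and were left out. The values for C3 and Serping1 were thus found without classes that carried much of their UMIs. The groups share libraries and depth, so these values are descriptions.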

How the data were processed

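Per the submitters' processing notes, reads were handled with Cell Ranger 6.0.2, Seurat 5.0.1 and mm10. The deposited values are raw UMI counts without normalization, and no subtraction of empty-droplet RNA was applied to them here. Cells under 1500 UMIs or 750 genes were dropped. Scrublet (scanpy 1.11.5) marked 0 doublets by its automatic limit, so the 225 control and 308 Maf LSEC-KO cells with the highest scores were removed, at 0.8% per 1000 barcodes. Each library was clustered with Seurat 5.3.0 (R 4.3.3, resolution 0.3). Clusters were named from at least 3 markers of a class among their 50 leading genes. LSECs were Vwf-negative cells of clusters with Pecam1 and at least 7 of 14 endothelial genes in 50% of cells, and such clusters led by hepatocyte or stellate genes stayed unnamed. This rule was uneven between the libraries. It left 720 control cells (15.2% of cells) unnamed for hepatocyte genes. In Maf LSEC-KO it left 46 cells (0.899%) for hepatocyte genes and 22 cells (0.430%) for stellate genes. Stellate-like cells held Lrat, Reln and at least 5 of 9 stellate genes. Mesothelial-like cells held at least 3 of 4 mesothelial genes, and other mesenchymal cells held at least 4 of the 9 stellate genes. These rules per cell were set after the clusters were seen. LSECs of both libraries were clustered together after SCTransform (sctransform 0.4.2) without complement genes. Intervals were exact (Poisson for levels, conditional binomial for ratios, Clopper-Pearson for shares, scipy 1.17.1). A gene was called different when 2-fold apart with at least 10 CPM in either library and 20 UMIs in both together. For shares at fixed depth each cell was thinned to 3600 UMIs and shallower cells were left out. Alternatives changed the scaling, depth, doublets, filters on cells and cluster resolution. Ratios and calls were tested on simulated data. These were Poisson draws around the summed LSEC counts, the model behind the intervals, so they did not cover variation between cells, mice or libraries. The text names the 8 genes, other complement genes of the list that reached 10 CPM, Maf, marker and interferon genes, and the most similar genes by correlation, while genes given as leading a cluster were named after their values were seen. 1 gene of the list is counted but not reported here. The genes and lists were chosen with earlier results of these data known.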

Additional observations from a re-analysis of the deposited data

How the results depend on the processing

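No paired analysis was possible because each condition was 1 library, and for the same reason no library could be left out. In LSECs, 15 alternatives were run, 2 of them (clusters led by hepatocyte or stellate genes included, and LSECs without Cxcl9 or Cxcl10 UMIs) chosen after seeing the data. The number of genes at least 2-fold lower was 3 in all but the last, where it was 2 because C2 came to −0.59, and 1 gene was at least 2-fold higher in all 15. Log2 ratios ranged from −2.10 to −1.82 for Cd55, from −4.46 to −2.84 for C5ar2, from −1.36 to −0.59 for C2, from 0.28 to 0.89 for Cfb and from 1.79 to 4.83 for Serping1. The lowest Serping1 value came from including clusters led by other cells' genes, which also gave C3 1.14. Scaling by UMIs of all genes moved every LSEC ratio by −0.20, TMM (edgeR 4.0.16) by −0.11. In macrophage-like cells the C3 ratio turned from −1.07 to 0.60 at resolution 0.8, chosen after seeing the data, where monocyte-like cells left the control class. The marker rule per cell kept 4 and 5 macrophages and 0 stellate cells and gave no usable ratio. Depth limits C3, C4b and control Serping1 in LSECs and every gene in stellate-like cells.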
